A study of Homo sapiens with 6 samples.

Results

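The EGF receptor family was followed through paclitaxel treatment in Hey and SKOV3, 2 established human lines of ovarian cancer. The members were the 10 genes of the expression table whose symbols are EGFR, ERBB2, ERBB3 and ERBB4 (4 receptors) and AREG, EREG, HBEGF, TGFA, BTC and NRG1 (6 ligands), of 59008 genes in all. The rule takes them by symbol and uses no measured value. RNA sequencing had been carried out on 1 library for each of 6 conditions: untreated parental cells, polyploid giant cancer cells (PGCCs, very large cells that survive a mitotic block) and daughter cells of each line. By the labels, PGCCs and daughter cells had been exposed to 500 nM paclitaxel, a microtubule-stabilizing drug, for 16 h and had then recovered for 3 days (PGCCs) or 30 days (daughter cells). The title of the SKOV3 PGCC library gives day 7 instead, while the methods text of the study gives the same day as the treatment label. The labels alone leave that recovery time unsettled. Each daughter library is labeled as clone 1, Hey cells were grown in MEM Eagle and SKOV3 cells in RPMI-1640, and the labels name no genetic change. With 1 library per condition, no difference between conditions within a line has a replicate check.

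The 4 receptors are transmembrane tyrosine kinases that signal as pairs. EGFR binds amphiregulin (AREG), epiregulin (EREG), heparin-binding EGF-like growth factor (HBEGF), TGF-alpha (TGFA) and betacellulin (BTC). ERBB3 and ERBB4 bind neuregulin 1 (NRG1), ERBB4 also binds several of the EGFR ligands, and ERBB2 binds none of them but is the preferred partner of the others. The ligands are made as membrane-anchored precursors that metalloproteases such as ADAM17 cut from the cell surface, and the paired receptors then signal through RAS-ERK and PI3K-AKT. EGFR is widely present in epithelial cells, and amplification of ERBB2 on chromosome 17 is a known event in epithelial cancers.

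The values are in TPM, the share of all transcripts that a gene takes after division by transcript length, so levels of different genes can be set side by side. A difference between libraries is given as the difference of log2(TPM + 1), and a gene was called higher or lower where that difference was at least 1 in size, which is 2-fold on the TPM + 1 scale. Because 1 is added, this scale understates the ratio of a gene with a low TPM. TPM values do not carry the depth of a library, which the methods text describes as nearly equal across the samples, and with no counts in hand no counting error was computed. All 10 genes averaged 1 TPM or more over the 6 libraries, as did 14988 genes of the table, and those 14988 are the background of every count. ERBB4 met that limit through the SKOV3 daughter library, and its other 5 values were all below 1. In bulk RNA, fewer cells that express a gene and less RNA per cell cannot be told apart.

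The column sums ran from 911825 to 920497 TPM, the genes above 0 from 19920 to 25370, and the mitochondrially encoded share from 2.64% in Hey parental cells to 14.8% in SKOV3 daughter cells, with 12.3% in Hey PGCCs. Of 13 epithelial and ovarian cancer markers, 5 to 7 reached 1 TPM in the Hey libraries and 11 to 13 in those of SKOV3. The keratins KRT8 and KRT18, which mark epithelial cells, lay at 220 TPM or more in every library, and PAX8, a transcription factor of Müllerian epithelium, ran from 54.7 to 136 TPM. The epithelial adhesion genes were low in Hey, where EPCAM ran from 0.369 to 1.43 TPM and CDH1 from 0 to 0.0283 TPM, against 8.15 to 68.8 TPM and 1.47 to 8.35 TPM in SKOV3. CD3E of T cells and MS4A1 of B cells were listed at 0 in all 6 libraries. Of the 9 fibroblast markers 1 to 3 were at 1 TPM or more, with sums between 3.13 and 28.3 TPM.

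The promoters of 4 ligand genes are shown because these genes stood at least 2-fold higher in Hey PGCCs than in Hey parental cells. NRG1, which did as well, is not shown. Each is the RefSeq sequence of GRCh38.p14, 250 bases before the transcription start, read 5′ to 3′ on the gene's strand. AREG and EREG lie in the same orientation on chromosome 4, 56387 bp apart. Their windows are chr4:74444886-74445135 and chr4:74364895-74365144, both on the plus strand. The HBEGF window is chr5:140346604-140346853 and the TGFA window chr2:70553827-70554076, both on the minus strand. Capitals mark the cyclic AMP response element TGACGTCA, the TATA box TATAAA and a match to the NF-kB consensus, searched on both strands.
AREG: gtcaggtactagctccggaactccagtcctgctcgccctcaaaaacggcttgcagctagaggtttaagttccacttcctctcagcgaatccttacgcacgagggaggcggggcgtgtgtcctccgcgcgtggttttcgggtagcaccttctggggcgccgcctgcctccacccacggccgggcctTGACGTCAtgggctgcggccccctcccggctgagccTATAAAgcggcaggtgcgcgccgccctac
EREG: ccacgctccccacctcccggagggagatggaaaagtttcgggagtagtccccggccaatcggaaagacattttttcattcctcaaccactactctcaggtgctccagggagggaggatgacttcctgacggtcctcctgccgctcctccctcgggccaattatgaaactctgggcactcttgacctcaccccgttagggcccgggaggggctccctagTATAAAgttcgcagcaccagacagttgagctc
HBEGF: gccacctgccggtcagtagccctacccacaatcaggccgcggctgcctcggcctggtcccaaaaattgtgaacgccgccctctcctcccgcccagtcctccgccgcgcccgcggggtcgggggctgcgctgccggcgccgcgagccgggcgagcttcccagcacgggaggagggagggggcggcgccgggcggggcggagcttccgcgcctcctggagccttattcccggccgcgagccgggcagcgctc
TGFA: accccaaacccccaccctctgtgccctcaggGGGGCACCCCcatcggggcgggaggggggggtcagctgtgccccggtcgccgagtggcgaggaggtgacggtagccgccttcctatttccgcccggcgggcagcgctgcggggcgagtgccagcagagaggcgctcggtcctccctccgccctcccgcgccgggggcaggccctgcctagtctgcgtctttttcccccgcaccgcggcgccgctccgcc

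AREG and EREG each held a TATA box near the start, at positions -29 and -32, and 10.7% of 35116 RefSeq promoters of that length held one. AREG also held the cyclic AMP response element at -65, present in 1.65% of the promoters. TGFA held an NF-kB match at -219 (9.96% of promoters). HBEGF and TGFA had none of the TATA letters and were rich in GC, 76.4% and 75.6%, with 5 and 3 GC boxes (GGGCGG, in 42.6% of promoters, not marked). AREG was at 65.2% GC with 1 GC box, at -9, and EREG at 58% GC with none. The AP-1 letters TGANTCA, held by 6.57% of promoters, occurred in none of these 4 windows and once in the ERBB2 window. Motifs of different kinds did not overlap, but a pair of the HBEGF GC boxes shared a base. The matches describe these letters, and binding was not measured.

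The highest levels belonged to EGFR and ERBB2, and the dominant receptor differed between the lines. EGFR, the receptor of most of the ligands here, stood at 164 TPM in the parental library of Hey, 93.4 in the PGCC library and 209 in the daughter library. In SKOV3 the 3 EGFR values were 67.1, 71.5 and 87.8 TPM. EGFR was higher in Hey than in SKOV3 in each state, but the margin was narrow at the PGCC stage. The ratio of Hey to SKOV3 was 1.31 there, against 2.44 in parental and 2.37 in daughter cells. Within Hey the PGCC library was the lowest, with differences of log2(TPM + 1) of -0.80 from parental and -1.15 from daughter cells. Within SKOV3 the 3 EGFR levels lay close together, and PGCCs differed from parental cells by 0.09.

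ERBB2, the receptor without a ligand of its own, showed the largest difference between the lines on the log2(TPM + 1) scale, from 6.22 to 7.60. It stood at 14.1, 8.20 and 13.7 TPM in Hey parental cells, PGCCs and daughter cells. In SKOV3 it stood at 1127, 1778 and 1173 TPM, where it ranked 113, 69 and 81 from the top among the genes above 0. SKOV3 levels were 79.7 times those of Hey among parental cells, 217 times among PGCCs and 85.8 times among daughter cells. The PGCC ratio is as deposited, without removal of the trend in GC content that is described below. ERBB2 made up 94.2%, 96.0% and 91.5% of the summed receptor TPM in the 3 SKOV3 libraries, while EGFR made up 92.0%, 91.1% and 93.8% of it in Hey. The summed receptor level was 178, 103 and 222 TPM in Hey and 1197, 1853 and 1281 TPM in SKOV3.

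The 2 neuregulin receptors were low in nearly all libraries. ERBB3, whose kinase is weak and which signals through its partners, stood at 0.125, 0.528 and 0.0176 TPM in Hey parental cells, PGCCs and daughter cells and at 1.94, 2.90 and 1.19 TPM in SKOV3. On the TPM + 1 scale ERBB3 was at least 2-fold higher in SKOV3 in all 3 states, as were 11.5% of the background genes. PGCCs had the highest ERBB3 value in each line, though no difference within a line reached 2-fold on that scale. ERBB4 stood at 0.0343, 0.443 and 0.0665 TPM in Hey and at 0.852 and 0.255 TPM in SKOV3 parental cells and PGCCs. In SKOV3 daughter cells it stood at 19.4 TPM, 22.7 times the parental level, a difference of log2(TPM + 1) of 3.46. The gene entered the background through this same library. The ERBB4 level in that library, 1 clone, is the only value of the gene above 1 TPM, and it made up 1.51% of the receptor sum there.

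**Figure D1:**
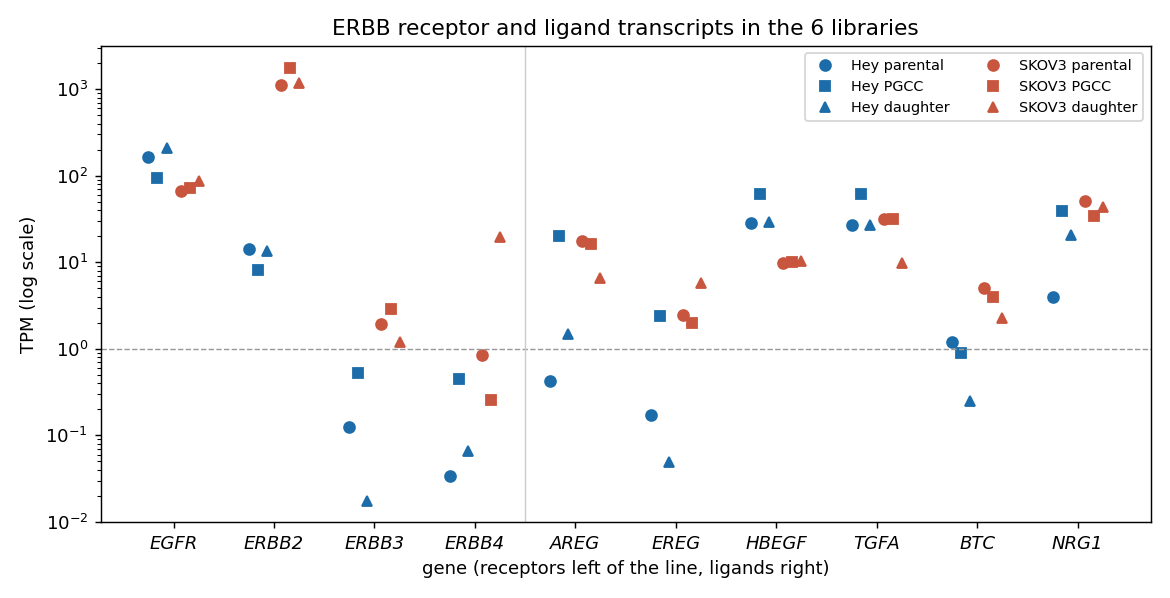
TPM on a log axis of the 4 receptor and 6 ligand genes in each of the 6 libraries, 1 point per library, colored by cell line and shaped by state, with a dashed line at 1 TPM. ERBB2 lies between 1127 and 1778 TPM in SKOV3 and at or below 14.1 TPM in Hey, and ERBB4 is above 1 TPM only in SKOV3 daughter cells.

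Among the EGFR ligands, AREG had the largest difference between a PGCC library and its parental library. It stood at 0.429 TPM in the parental library of Hey, 20.3 in the PGCC library and 1.49 in the daughter library. In SKOV3 it stood at 17.5, 16.2 and 6.52 TPM. The Hey PGCC level was thus close to the levels of SKOV3 parental cells and PGCCs, while the other Hey libraries lay far below them. The difference between Hey PGCCs and parental cells was 3.90, a TPM ratio of 47.4, and exceeded those of 99.7% of the background genes. In SKOV3 the same difference was -0.11, and the daughter library was the lowest, with a difference from parental cells of -1.30.

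EREG, the neighbor of AREG, was lower in level. It stood at 0.170, 2.39 and 0.0496 TPM in Hey parental cells, PGCCs and daughter cells and at 2.49, 1.997 and 5.81 TPM in SKOV3. Hey PGCCs were 14.1 times the parental level, a difference of 1.53 on the log2(TPM + 1) scale, and again came to about the level of the SKOV3 cells. In SKOV3 the daughter library had the highest EREG value, with a difference from parental cells of 0.96, whereas AREG was lowest in that library.

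HBEGF and TGFA were the most abundant EGFR ligands in Hey. HBEGF stood at 28.5, 61.4 and 28.9 TPM in Hey parental cells, PGCCs and daughter cells, and TGFA at 26.7, 61.7 and 27.0 TPM. Both were thus 2.16 and 2.31 times their parental level in Hey PGCCs, with differences of 1.08 and 1.18, and daughter cells lay 0.02 from parental cells on the log2(TPM + 1) scale for each gene. In SKOV3, HBEGF stood at 9.75, 10.2 and 10.3 TPM and TGFA at 31.2, 31.6 and 9.80 TPM. HBEGF was level across the SKOV3 states, and TGFA was level between parental cells and PGCCs but lower in daughter cells, with a difference of -1.58.

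BTC was low and did not follow the other ligands. It stood at 1.21, 0.900 and 0.252 TPM in Hey parental cells, PGCCs and daughter cells and at 5.08, 4.02 and 2.26 TPM in SKOV3. The order parental, PGCC, daughter from high to low was the same in both lines, and no difference from the parental library reached 2-fold on the TPM + 1 scale. BTC lies 289754 bp from AREG on chromosome 4.

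NRG1, the ligand of ERBB3 and ERBB4, stood at 3.999 TPM in the parental library of Hey, 39.0 in the PGCC library and 20.6 in the daughter library. In SKOV3 it stood at 51.5, 34.2 and 43.6 TPM. The Hey parental level was the low value, 9.76 times below that of Hey PGCCs (difference of 3.00). On the TPM + 1 scale NRG1 was the only member at least 2-fold above parental in Hey daughter cells, with a difference of 2.11. AREG, low in both libraries, had a TPM ratio of 3.46 there but a difference of 0.80. NRG1 made up 6.56%, 21.0% and 26.3% of the summed ligand TPM in Hey and 43.8%, 34.8% and 55.7% in SKOV3. Many NRG1 isoforms exist, and the gene value does not separate them.

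The first question of the design was how PGCCs differed from the cells they came from. In Hey, 5 of the 10 members were called higher (AREG, EREG, HBEGF, TGFA and NRG1) and 0 lower, against 7.67% of the background genes higher and 5.22% lower (12.9% in either direction). All 5 were ligands, none of the receptors was called, and the median difference over the 10 members was 0.78, against 0.00 over the background genes. The summed ligand level was 61.0 TPM in parental cells and 186 TPM in PGCCs, a ratio of 3.05, while the summed receptor level had a ratio of 0.576. The count of 5 became 7 at a threshold of 1.5-fold, where EGFR (-0.80) and ERBB2 (-0.72) were lower, and also 7 with 0.1 added in place of 1, where ERBB3 and ERBB4, both below 1 TPM, were higher. Hey PGCCs also had the most genes above 0 of all libraries and Hey parental cells the fewest (25370 and 19920).

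In SKOV3, 0 of the 10 members were called between PGCCs and parental cells, against 14.9% of the background genes (9.94% higher and 4.96% lower). The differences ran from -0.58 for NRG1 to 0.66 for ERBB2, with a median of -0.05. The summed ligand level was 118 TPM in parental cells and 98.2 TPM in PGCCs, a ratio of 0.835. No member was therefore called alike in both lines, against 1.67% of the background genes. This is a comparison of 1 library pair in each line, and the difference between the lines was not tested.

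**Figure D2:**
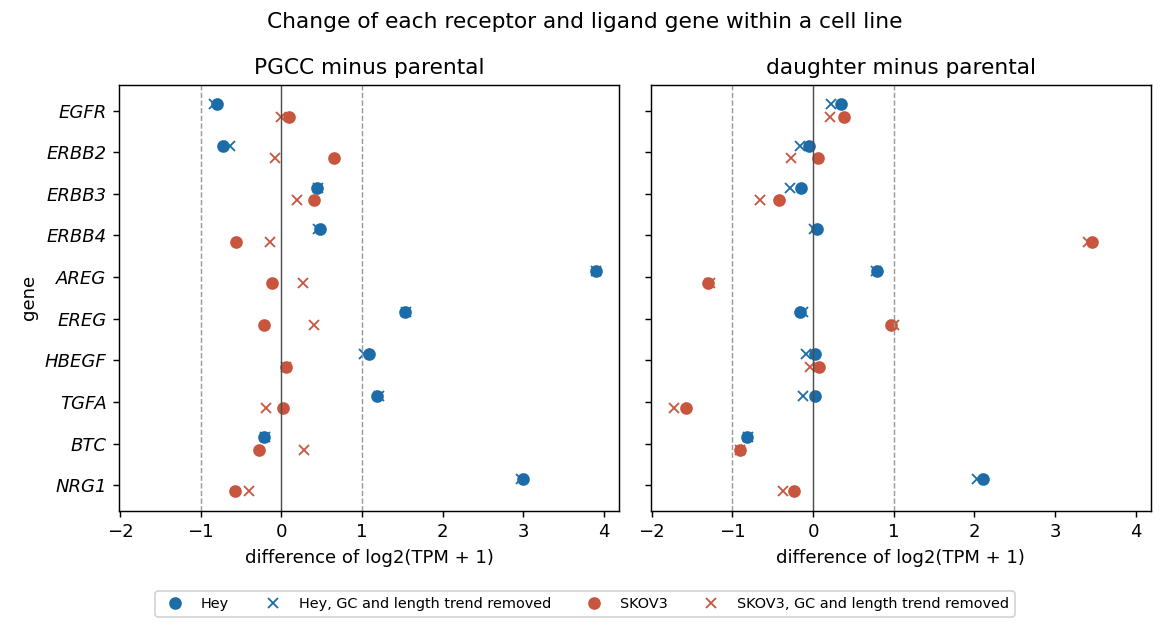
Difference of log2(TPM + 1) from the parental library of the same line for the 10 genes, in PGCCs (left) and daughter cells (right), with Hey and SKOV3 as points and the same values after removal of the trend in GC content and length as crosses. Dashed lines mark 2-fold. In Hey PGCCs 5 ligands lie beyond 1, from HBEGF at 1.08 to AREG at 3.90, and in SKOV3 PGCCs no gene does.

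In SKOV3 the difference between PGCCs and parental cells moved with the GC content of the transcripts. Taken across 13468 genes (genes are no independent replicates), the Spearman correlation was 0.73 in SKOV3 and -0.05 in Hey. The median SKOV3 difference ran from -0.58 for genes under 40% GC to 0.95 for genes of at least 60%. ERBB2, at 59.5% GC, had a difference of 0.66 as deposited and -0.08 with the GC and length trend removed. EREG, at 38.1% GC, went from -0.22 to 0.40, and AREG, at 41.9%, from -0.11 to 0.27. Neither the 5 calls in Hey nor the absence of calls in SKOV3 depended on this trend. The part of library preparation in it was not tested.

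**Figure D3:**
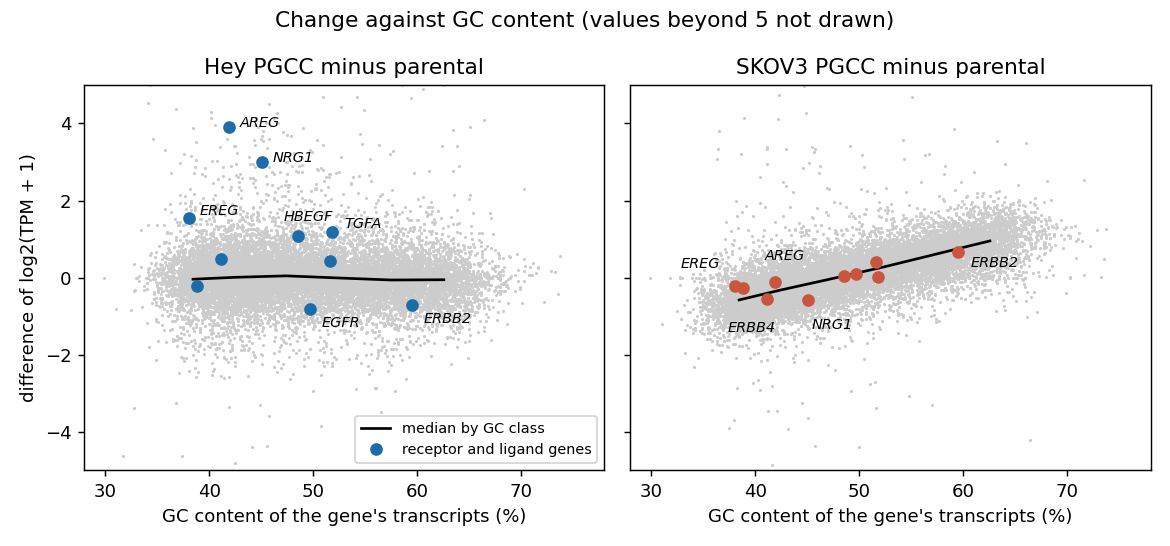
Difference of log2(TPM + 1) between PGCCs and parental cells (vertical axis) against the GC content of the gene's transcripts in percent (horizontal axis) for Hey and SKOV3. Gray points are the background genes, the line joins the medians of 6 GC classes and colored points are the receptor and ligand genes. The line is flat in Hey, where 5 ligands lie above it by more than 1, and in SKOV3 it climbs from -0.58 to 0.95 with the 10 genes along it.

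The second question was whether daughter cells resembled the parental cells. In Hey daughter cells, 1 member (NRG1) was called higher than in parental cells and 0 lower, against 6.31% and 3.73% of the background genes. AREG kept a smaller difference of 0.80. In SKOV3 daughter cells, ERBB4 was called higher and AREG and TGFA lower, so that 1 member was higher and 2 were lower, against 15.1% and 6.34% of the background genes (21.5% in either direction). ERBB4 entered the background through this same library, so its call is no support for the count. No member was called alike in both daughter libraries, against 1.57% of the background genes. For BTC this depended on the processing. With 0.1 added in place of 1, BTC was lower in both daughter libraries, at -1.90 in Hey and -1.14 in SKOV3. Under quantile normalization BTC was also lower in both (-1.13 and -1.32). The sum of the 5 EGFR ligands was 57.0 TPM in Hey parental and 57.8 TPM in Hey daughter cells, and 66.1 and 34.7 TPM in SKOV3.

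PGCCs were also set against daughter cells. In Hey, AREG, EREG, HBEGF and TGFA were called higher in PGCCs and EGFR lower, which is 4 members higher and 1 lower, against 8.13% and 9.95% of the background genes (18.1% in either direction). In SKOV3, AREG and TGFA were called higher in PGCCs and EREG and ERBB4 lower, which is 2 in each direction, against 9.25% and 14.6% (23.9% in either direction). ERBB4 entered the background through the SKOV3 daughter library, so its call here is no support for the count either. AREG (differences of 3.10 in Hey and 1.19 in SKOV3) and TGFA (1.16 and 1.60) thus exceeded the daughter level in both PGCC libraries, as were 2.29% of the background genes in a shared direction. The SKOV3 value of EREG, -1.18, became -0.59 with the GC and length trend removed, and that of BTC went from 0.62 to 1.21. Quantile normalization also ended the calls of EREG in SKOV3 (-0.90) and of EGFR in Hey (-0.96), and it added NRG1 in Hey (1.05).

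When the 2 lines stood in for replicates of a state, no state difference of a member passed the test. limma was fitted to log2(TPM + 1) of all 6 libraries with state and cell line as terms and 2 residual degrees of freedom, and p-values were adjusted by the Benjamini-Hochberg method over the 14988 genes. For PGCCs against parental cells 0 members passed an adjusted p of 0.05, and 0 had an unadjusted p under 0.05, against 2.73% of the background genes. limma called 3 genes in all, 0.02% of the background. The AREG estimate was 1.89 ± 0.85 (SE), with a limma p of 0.0588 and an adjusted p of 1. For daughter against parental cells limma called 0 members (0 at an unadjusted p under 0.05, against 3.39% of the background genes) and 2 genes in all (0.0133%). For PGCCs against daughter cells limma called 0 members and 0 genes (0%), and 2 members were under an unadjusted p of 0.05, against 5.06% of the background genes, AREG at 2.15 ± 0.85 (p of 0.0376) and TGFA at 1.38 ± 0.47 (p of 0.0217), both with an adjusted p of 0.908. With 2 lines per state such a fit has little power, and a p above the threshold does not show that the states were alike.

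Most members also stood apart between the lines in parental and daughter cells, and 4 of the 10 did in PGCCs. Between SKOV3 and Hey parental cells 6 members were called higher in SKOV3 and 2 lower, against 24.2% and 11.5% of the background genes. Between the PGCC libraries 3 were higher and 1 lower (29.6% and 13.4%), and between the daughter libraries 7 were higher and 3 lower (29.5% and 12.3%, or 41.8% in either direction). The 7 include ERBB4, which entered the background through the SKOV3 daughter library. Fewer members were past 2-fold at the PGCC stage than in parental cells, while more background genes were, 43% in either direction against 35.7%. The trend with GC content in SKOV3 PGCCs (Spearman correlation of 0.73 for the difference from parental cells) was not removed from any value between the lines. Its part in these counts was not tested. AREG, EREG and NRG1 were at least 2-fold higher in SKOV3 in parental and daughter cells, and in PGCCs they differed between the lines by -0.31, -0.18 and -0.19. ERBB2, ERBB3 and BTC were higher in SKOV3 in all 3 states, which 11.5% of the background genes were, and HBEGF was lower in all 3, as were 4.71%.

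Over the 6 libraries, limma called 3 members between the lines, of 3093 background genes (20.6%). ERBB2 was higher in SKOV3 by 6.71 ± 0.36 (SE) on the log2(TPM + 1) scale, with a limma adjusted p of 0.000131. HBEGF was lower in SKOV3 by 1.78 ± 0.35 and BTC higher by 1.41 ± 0.41, with limma adjusted p values of 0.0142 and 0.0491. EGFR was at -0.96 ± 0.32, with an adjusted p of 0.0710 by limma. An unadjusted p under 0.05 was reached by 6 members, against 36.7% of the background genes. Without the Hey PGCC library limma called 0 members and 0 genes, with 1 residual degree of freedom, and likewise without the SKOV3 PGCC library, with 8 and 7 members at an unadjusted p under 0.05. The 3 libraries of a line come from the same line, so these p-values concern these libraries and not cell lines at large, and the lines were grown in different media.

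The genes around ERBB2 stood higher in SKOV3 as well. Of 9 expressed protein-coding genes within 200 kb of ERBB2 (chr17:39687914-39730426, plus strand, GRCh38), 7 (parental), 8 (PGCC) and 8 (daughter) were at least 2-fold higher in SKOV3, and 0 were lower in any state, against 24.2%, 29.6% and 29.5% of the background genes higher. Their median differences were 2.22, 3.05 and 2.36, against 0.29, 0.35 and 0.38 over all background genes. Within 1 Mb, of 35 genes 13, 19 and 16 were higher and 3, 2 and 3 lower, with medians of 0.78, 1.20 and 0.94. The median was thus higher within 200 kb than within 1 Mb in each state. The trend with GC content in SKOV3 PGCCs was not removed from the PGCC values.

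PPP1R1B, which encodes a phosphatase inhibitor, was listed at 0 in all 3 Hey libraries and stood at 669, 987 and 976 TPM in SKOV3 parental cells, PGCCs and daughter cells. GRB7, an adaptor that binds ERBB2, stood at 0.0920, 0.133 and 0 TPM in Hey and at 26.9, 49.2 and 75.4 TPM in SKOV3. STARD3, a cholesterol-binding protein of late endosomes, stood at 32.7, 30.0 and 23.1 TPM in Hey and at 156, 283 and 143 TPM in SKOV3. These genes were at least 2-fold higher in SKOV3 in all 3 states, as were 11.5% of the background genes. The copy number of the region was not measured here.

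**Figure D4:**
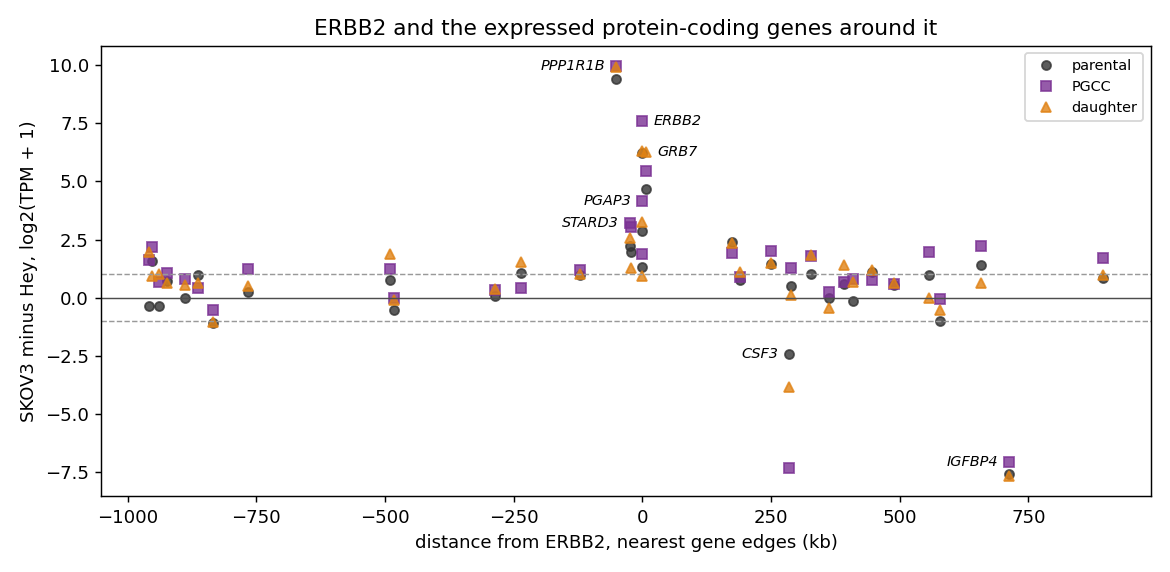
Difference of log2(TPM + 1) between SKOV3 and Hey (vertical axis) for the expressed protein-coding genes within 1 Mb of ERBB2, by distance between the nearest gene edges in kb (horizontal axis), 1 point per state. Dashed lines mark 2-fold. The highest values lie within 200 kb of ERBB2, at PPP1R1B (9.39 to 9.95) and at ERBB2 itself (6.22 to 7.60). Beyond 200 kb values lie mostly between -1 and 2.5, apart from CSF3 and IGFBP4, which are higher in Hey and were named after their values were seen. PPP1R1B is listed at 0 in Hey, and CSF3 at 0 in SKOV3, so their heights depend on the 1 that is added.

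Around EGFR (chr7:55019017-55211628, plus strand) the genes lay somewhat lower in SKOV3. Of 10 expressed genes within 1 Mb, 0 were higher and 1, 2 and 1 lower in SKOV3 in parental cells, PGCCs and daughter cells, against 11.5%, 13.4% and 12.3% of the background genes lower. Their median differences were -0.47, -0.52 and -0.65, where the background medians were above 0. In Hey daughter cells 2 of the 10 were higher than in parental cells, against 6.31% of the background genes. These were SEC61G (254 and 522 TPM in parental and daughter cells) and LANCL2 (3.48 and 9.01 TPM), where EGFR itself differed by 0.35. In SKOV3 daughter cells 4 of the 10 were higher than in parental cells, against 15.1%, where EGFR differed by 0.38.

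AREG, EREG and BTC share a stretch of chromosome 4 with the CXC chemokine genes. Of 8 expressed genes within 1 Mb of AREG (chr4:74445136-74455005, plus strand), EREG and BTC included, 6 were at least 2-fold higher in Hey PGCCs than in Hey parental cells, with a median difference of 1.36, against 7.67% and 0.00 for the background genes. In SKOV3 PGCCs 0 of the 8 were called, with a median of -0.15. Besides EREG, the 6 were CXCL8, CXCL1, CXCL3 and CXCL2, which attract neutrophils, and MTHFD2L, a mitochondrial folate enzyme. CXCL8 stood at 149 TPM in Hey parental cells and 3488 TPM in Hey PGCCs. BTC and RASSF6 were the 2 that were not called. In SKOV3 daughter cells CXCL8 and CXCL2 were higher than in parental cells, by 1.79 and 1.28, as EREG was by 0.96, while AREG and BTC had differences of -1.30 and -0.90. CXCL8 and CXCL2 were the 2 of the 8 called higher there, with 0 lower, against 15.1% and 6.34% of the background genes.

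ERBB4 spans more than 1 Mb of chromosome 2 (chr2:211375717-212538841, minus strand). Of 4 expressed neighbors within 1 Mb, 1 (IKZF2) was called higher and 1 (CPS1) lower in SKOV3 daughter cells than in parental cells. Of the background genes 15.1% were higher and 6.34% lower in that comparison. The differences were 1.05 and -1.99, and that of ERBB4 was 3.46.

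The genes that release the ligands and carry the receptor signal were counted from lists of the pathway. Their values here and in the lists that follow are as deposited. The trend with GC content in SKOV3 PGCCs (Spearman correlation of 0.73) was not removed from them. The other ligands of the family, EGF, EPGN, NRG2, NRG3 and NRG4, had summed levels of 0.308 to 1.70 TPM per library, and 0 of 5 reached a mean TPM of 1. Of 9 shedding genes, 1 was called higher in Hey PGCCs than in parental cells (RHBDL2, 1.02) and 2 in SKOV3 PGCCs (RHBDF1, 1.69, and RHBDF2, 1.04, which encode the inactive rhomboids that carry ADAM17 to the surface), with 0 lower in either line, against 7.67% and 9.94% of the background genes higher. In SKOV3 daughter cells 5 of the 9 were higher than in parental cells, against 15.1% of the background genes, with a median of 1.06 against 0.15. ADAM17, the main sheddase of AREG and TGFA, stood at 23.0 and 57.8 TPM in SKOV3 parental and daughter cells and at 34.7 TPM in both of these Hey states. ADAM12, which can cut HBEGF, was higher in both daughter libraries, at 6.66 and 14.7 TPM in Hey and at 1.46 and 16.7 TPM in SKOV3. It was the 1 shedding gene called in Hey daughter cells, against 6.31% of the background genes higher. Of the background genes 1.57% were called alike in both daughter libraries. AREG and TGFA themselves were lower in the SKOV3 daughter cells, where ADAM17 was higher.

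Few genes between the receptors and the nucleus were called. Of 17 adaptor and RAS-ERK genes, 0 were called in Hey PGCCs, 1 in SKOV3 PGCCs (HRAS, higher by 1.15), 0 in Hey daughter cells and 1 in SKOV3 daughter cells (SHC1, higher by 1.06), each against parental cells. Of 14 genes of the PI3K-AKT and PLCG branch, 0 were called in either PGCC library or in Hey daughter cells, and 2 in SKOV3 daughter cells (PIK3CD at 1.06 and PIK3R3 at 1.10). These shares lay at or below the background percentages of the same comparisons.

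Among 15 expressed genes that restrain the receptors, CBLB, a ubiquitin ligase that targets active receptors, was lower in both daughter libraries. It stood at 6.01 TPM in Hey parental and 2.33 TPM in Hey daughter cells, and at 6.54 and 2.34 TPM in SKOV3, where PGCCs had 1.75 TPM. In Hey PGCCs 1 gene of the list was called higher (LRIG2, 1.04) and in SKOV3 PGCCs 2 were lower (CBLB, -1.46, and SOCS4, -1.17), against 7.67% of the background genes higher and 4.96% lower in these comparisons. DUSP5, a phosphatase that acts on ERK, was lower in SKOV3 daughter cells, by 1.73 on the log2(TPM + 1) scale. In daughter cells 1 gene of the list was thus lower in Hey and 2 in SKOV3, with 0 higher. Of the background genes 3.73% and 6.34% were lower in these comparisons, and 1.57% were called alike in both lines.

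Of 10 genes whose transcription ERK signaling is known to drive, 0 were called in Hey PGCCs, against 12.9% of the background genes in either direction. Their median difference was -0.15. In SKOV3 PGCCs 1 was called (EPHA2, higher by 1.19), against 14.9%. Both counts of this list lie near the background shares, and a link to the ligand levels was not tested. In daughter cells 3 were lower than in parental cells in each line and 0 were higher, against 3.73% (Hey) and 6.34% (SKOV3) of the background genes lower, with medians of -0.36 in Hey and -0.51 in SKOV3, against 0.05 and 0.15 over the background genes. DUSP4, an ERK phosphatase, and the ephrin receptor gene EPHA4 were lower in both, and 1.57% of the background genes were called alike in both. DUSP4 stood at 15.4 and 6.77 TPM in Hey parental and daughter cells and at 16.0 and 0.833 TPM in SKOV3. EPHA4 stood at 9.30 and 3.69 TPM in Hey and at 2.17 and 0.137 TPM in SKOV3. The remaining calls were SPRY2 in Hey, at 89.6 and 37.6 TPM, and PHLDA1 in SKOV3, at 118 and 24.9 TPM.

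**Figure D5:**
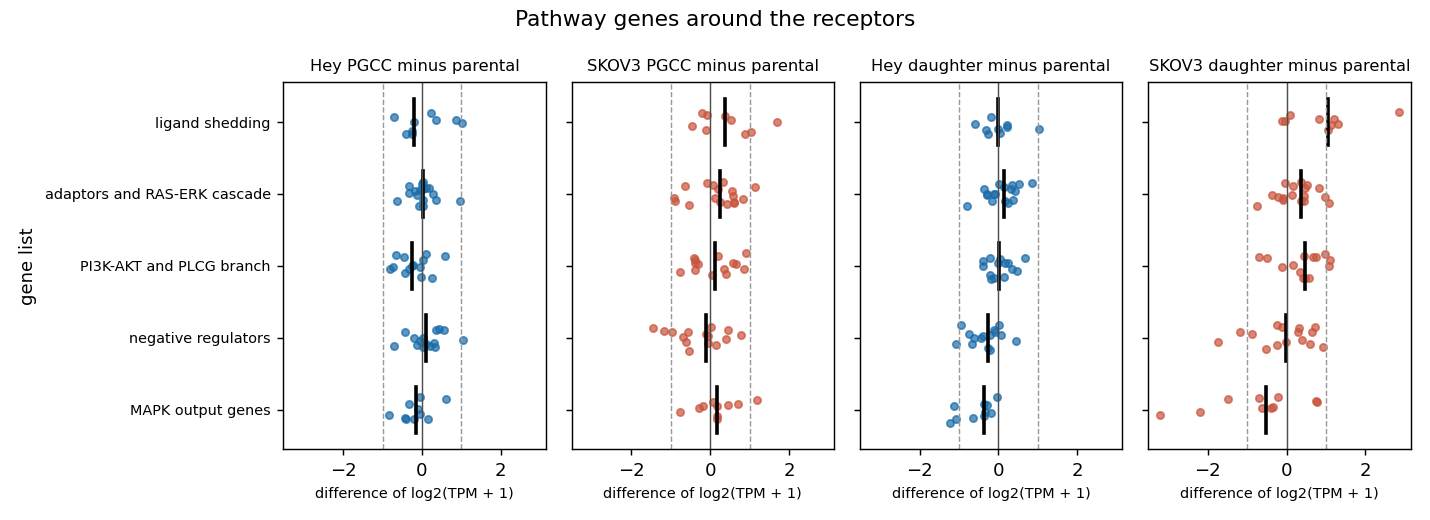
Difference of log2(TPM + 1) from the parental library of the same line for each expressed gene of 5 pathway lists, for the PGCC and daughter libraries of each line. Points are genes, scattered vertically within a list for legibility, black bars are list medians and dashed lines mark 2-fold. The shedding genes of SKOV3 daughter cells have the highest median (1.06) and the MAPK output genes of SKOV3 daughter cells the lowest (-0.51).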

How the data were processed

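RNA from 6 cultures (parental, PGCC and daughter cells of Hey and SKOV3) had been sequenced, and the authors deposited 1 table of TPM values for 59008 gene symbols, 1 column per library. Per the submitters' processing notes the tools were fastp and Salmon 0.14.1 and the build hg38. The annotation release and the way transcripts were combined into genes are not given in the sources used here, and the TPM table carries no read counts, so no counting error could be computed. Columns were assigned by the description label of each sample.

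Differences of log2(TPM + 1) were taken over genes that averaged 1 TPM or more and called at an absolute value of 1, without a test, since each condition had 1 library. limma 3.58.1 in R 4.3.3 (lmFit, eBayes with an intensity trend, two-sided, Benjamini-Hochberg) was fitted across 14988 genes. Positions, GC content and transcript length came from GENCODE release 44 (GRCh38), which gave GC content for 89.9% of those genes, and trends were removed by lowess (statsmodels 0.14.6, fraction of 0.3, 2 passes). Other computations used Python 3.11.15 with pandas 2.3.3. RefSeq promoters were matched by symbol, and 8 members are listed with one. Scripts were tested on simulated data.

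The members and gene lists were chosen with earlier results of these data known. All 10 members were named with their values. From each list, genes called alike in both lines and the 2 with the largest difference per line were to be named, and where a list held at most 5 calls the rest were named after their values were seen. The windows of 200 kb and 1 Mb around member genes and the count over members with a TPM of at least 1 in either library were also added after seeing the data. Alternatives were a pseudocount of 0.1, median-ratio and quantile scaling, leaving out mitochondrial genes, thresholds of 1.5-fold and 3-fold, the GC and length trend and, for limma, other filters, no intensity trend, no second factor and each library left out in turn. A gene with a pattern like that of EGFR is not reported here. No comparison columns of the authors were used.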

Additional observations from a re-analysis of the deposited data

Results flagged for a closer look

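A pair of ligand genes differed in opposite directions in the lines by at least 1.5-fold each. AREG stood above the parental level in Hey daughter cells (difference of log2(TPM + 1) of 0.80) and below it in SKOV3 daughter cells (-1.30), so the Hey value exceeded the SKOV3 value by 2.10. EREG stood higher in PGCCs than in daughter cells in Hey (1.69) and lower in SKOV3 (-1.18), a gap of 2.87. The SKOV3 value of EREG was -0.59 once the trend in GC content and length was taken out. Each value compares 1 library with 1 library, and the difference between the lines was not tested.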

How the results depend on the processing

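No paired analysis was possible because each group has 1 library and the groups share fewer than 2 replicate numbers, so replicates cannot be blocked, and states were matched within a line through the cell line term of limma. Of 420 values of single members under the alternatives, 376 stayed on the same side of the threshold in the same direction, 31 passed it newly, 13 dropped below it and none reversed. The 5 ligand calls in Hey PGCCs held under each scaling, the pseudocount of 0.1 and the GC and length correction, and 2 held at 3-fold, while the count was 7 with the pseudocount of 0.1 and 7 at 1.5-fold, with receptors added in both. With a pseudocount of 0.1 the members called numbered 1 in SKOV3 PGCCs against parental cells (ERBB4, lower), 3 in Hey daughter cells, 5 in SKOV3 daughter cells and 8 in Hey PGCCs against daughter cells. Quantile normalization gave 2 in Hey daughter cells and ended the calls of EGFR in Hey (-0.96) and EREG in SKOV3 (-0.90) between PGCCs and daughter cells. At 1.5-fold the counts were 1 (SKOV3 PGCCs), 3 (Hey daughter cells), 5 (SKOV3 daughter cells), 9 (Hey PGCCs against daughter cells) and 7 (SKOV3 PGCCs against daughter cells), and at 3-fold they were 1 in SKOV3 daughter cells and 2 in each comparison of PGCCs with daughter cells. Leaving out mitochondrial genes moved the median of all genes to 0.11 in Hey PGCCs, 0.11 in Hey daughter cells and 0.23 in SKOV3 daughter cells, and to -0.22 for SKOV3 PGCCs against daughter cells.

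Between the lines limma called 1 member over 31474 genes with a TPM above 0. Leaving out 1 library gave 0 to 3 members: 0 without either PGCC library, 1 without Hey parental, Hey daughter or SKOV3 parental cells and 3 without SKOV3 daughter cells. The state contrasts called 0 members in every limma fit. With 1 library per condition and no counts, a low value such as that of EREG, ERBB3 or ERBB4 in Hey carries no error estimate.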

Other observations

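The genes whose log2(TPM + 1) most resembled that of 4 members over the 6 libraries are given as a description, since 6 libraries of 2 lines leave many genes with a close match. For EGFR they included AC021106.1 and MCCC1 (Pearson r of 0.998 and 0.990). MCCC1, a subunit of a leucine-degrading carboxylase, stood at 35.4, 21.4 and 51.4 TPM in Hey parental cells, PGCCs and daughter cells and at 13.6, 13.4 and 20.7 TPM in SKOV3. For ERBB2 they were PRKCZ, C11orf49 and DYRK2 (0.999, 0.999 and 0.998), which share with it a high level in all SKOV3 libraries. For AREG they were COX7A2, AP001453.3 and CASP10 (0.990, 0.989 and 0.982). For HBEGF they were AC106712.1, LNCTAM34A and WIPI1 (0.998, 0.993 and 0.993). CASP10, a caspase of death receptor signaling, stood at 0.949, 5.30 and 1.18 TPM in Hey and at 4.04, 5.12 and 3.28 TPM in SKOV3. The libraries of a line share their origin, so these values are not independent points.

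CD68, a lysosomal gene prominent in macrophages, stood at 45.6 to 69.3 TPM in Hey, at 17.1 and 20.0 TPM in SKOV3 parental cells and PGCCs and at 0.840 TPM in SKOV3 daughter cells, the library in which ERBB4 was high. The other listed immune markers were below 1 TPM in every library. Among them PTPRC, the leukocyte marker, was listed at 0 in all Hey libraries and at 0.126, 0.283 and 0.425 TPM in SKOV3 parental cells, PGCCs and daughter cells. CDH5, an endothelial cadherin gene, stood at 33.2 to 48.5 TPM in Hey and at 0 to 2.56 TPM in SKOV3. The other endothelial markers listed, PECAM1, VWF and KDR, were below 1 TPM in every library.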
